A study of Mus musculus with 4 samples.

Results

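The genes that write and erase methyl marks on histones and other proteins were examined in B16F10 cells, a mouse melanoma line, with and without knockdown of lamin A/C. Members were all symbols of the deposited count matrix that begin with Kdm, Kmt, Setd, Setdb, Nsd or Prdm followed by a digit, with Whsc1, Suv39h, Suv420h or Ehmt, or with Prmt followed by a digit, together with Carm1, Dot1l and Ash1l. Membership followed from the symbol, and 68 of 24421 symbols matched. Of these, 52 passed the filter on low counts and were tested with the other genes that passed it, 9150 in all. The remaining 16 were not tested, and 9 of those had no count in any library.

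The series held 4 bulk RNA libraries. The 2 shControl libraries came from B16F10 cells (strain label C57BL/6) transduced with an empty lentiviral vector, TRC2 pLKO.5-puro. The 2 shLmna libraries came from cells transduced with a lentivirus that expresses a short hairpin RNA (shRNA) targeting Lmna, which encodes both A-type lamins. Both lines were selected with puromycin and expanded, so carriage of a lentivirus and exposure to the drug were common to both groups, while carriage of a hairpin was not. Viruses of both groups were packaged in HEK293T cells, a human embryonic kidney line. Each group used 1 vector, no clone is named, and the labels do not state whether the libraries of a group were separate transductions or cultures. The p-values therefore measure the spread between these libraries, which may be technical.

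Lysine methyltransferases, most of them carrying a SET domain, transfer methyl groups from S-adenosylmethionine to defined lysines of histone tails, and PRMT enzymes do the same on arginines. Methylation of lysine 4 of histone H3 (H3K4) is known for marking promoters and enhancers, H3K36 and H3K79 for transcribed gene bodies, and H3K9 and H4K20 for heterochromatin, much of which lies at the nuclear lamina. The marks are removed by the flavin-dependent LSD enzymes and by the JmjC enzymes, which need iron and 2-oxoglutarate. The study measured the heterochromatin mark H3K9me3 and some of its writers in the same cell lines, and the libraries allow the transcript levels of the whole enzyme set to be compared between the lines.

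Library totals ran from 2494880 to 3808843 counts, and member genes took 8496 to 11738 of them. Levels are given in CPM, a library's counts rescaled to a common total and adjusted by the trimmed mean of M-values (TMM). The method counts transcripts at their 3′ end and the values were not divided by gene length, so levels are compared within a gene and are only listed side by side between genes. Lmna itself had 2826 and 2684 counts in shControl against 331 and 480 in shLmna, a log2 fold change of −2.61 (SE 0.142, adjusted p = 7.93e-06). The melanocytic genes Pmel, Mlana, Tyrp1 and Dct were abundant, whereas the pigment enzyme gene Tyr had 1 and 1 counts in shControl against 3 and 7 in shLmna. These markers differed between the groups in both directions: Sox10 was lower in shLmna (log2 change −0.89, adjusted p = 0.00161), Pmel and Mlana were higher (0.41 and 0.51, adjusted p = 0.0258 and 0.0051), and Mitf had a log2 change of −0.37 (adjusted p = 0.0804). Summed immune markers stayed at or under 0.396 CPM in every library, endothelial markers at or under 1.34 CPM, with Ptprc and Cdh5 at 0. The 6 fibroblast markers summed to 7.12 and 7.23 CPM in shControl and 2.37 and 4.90 CPM in shLmna, with Dcn, Lum and Thy1 at 0, and the part of these markers in the results was not tested.

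Of the 52 tested members, 6 were lower in shLmna and 1 was higher at an adjusted p under 0.05 (edgeR quasi-likelihood F test, two-sided, Benjamini-Hochberg over 9150 genes). The 6 lower genes were Setd7, Kmt2e, Kmt2c, Prmt6, Kdm6b and Kdm4b, and the higher gene was Setd5. These counts are 11.5% and 1.92% of the tested members, where 9.74% and 5.48% of all tested genes were called lower and higher. With the further limits that the study used, a log2 change over 1 in size and a mean normalized count over 5, 4 members were lower (Setd7, Kmt2e, Kmt2c and Prmt6) and 1 was higher (Setd5), where 5.88% and 1.76% of all tested genes were called. The lower shares of members lay near these backgrounds and include Kmt2e and Kmt2c, which met the filter on low counts through shControl alone, and the higher shares rest on 1 gene.

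Most members moved little. The median log2 change of the tested members was 0.10, beside −0.0011 for all tested genes, with 22 members negative and 30 positive. Both shLmna libraries lay below both shControl libraries in 12 members and above them in 18, and the libraries of the groups overlapped in 22. Over all tested genes, 30.6% lay below and 29.5% above. An unadjusted p under 0.05 (edgeR) was found for 10 lower and 6 higher members of 52 tested. Over all 9150 tested genes it was found for 1508 lower and 1242 higher. The summed level of all members was 3126 and 2922 CPM in shControl and 3360 and 3198 CPM in shLmna, so both shLmna sums lay above both shControl sums by a small part of their level. In bulk samples, fewer cells of a type and less RNA per cell cannot be told apart, and all levels are relative to the other transcripts of the library.

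The counts depended on single libraries, and a group left with 1 library was assumed to vary like the other. In fits without 1 library, the counts of members called lower and higher changed with the library left out. The counts over all tested genes changed with it too, so this was not particular to the members. Setd7 and Kmt2e were among the lower genes in each of these fits. Past the study's limits, 2 members were lower without shLmna 2 and 0 higher without shLmna 1. Setd5 itself, at a log2 change of 1.02, fell under the limit of 1 without shControl 2 (0.83) and without shLmna 1 (0.77), with the GC correction (0.95), with the replicate block and GC correction (0.94) and with recovered counts (0.99). The filter on low counts was met in both groups by 47 members. Kmt2c, Kmt2e and Kdm2b were the 3 that met it through shControl alone, and Kdm5b and Kdm6a through the shLmna libraries alone.

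**Figure D1:**
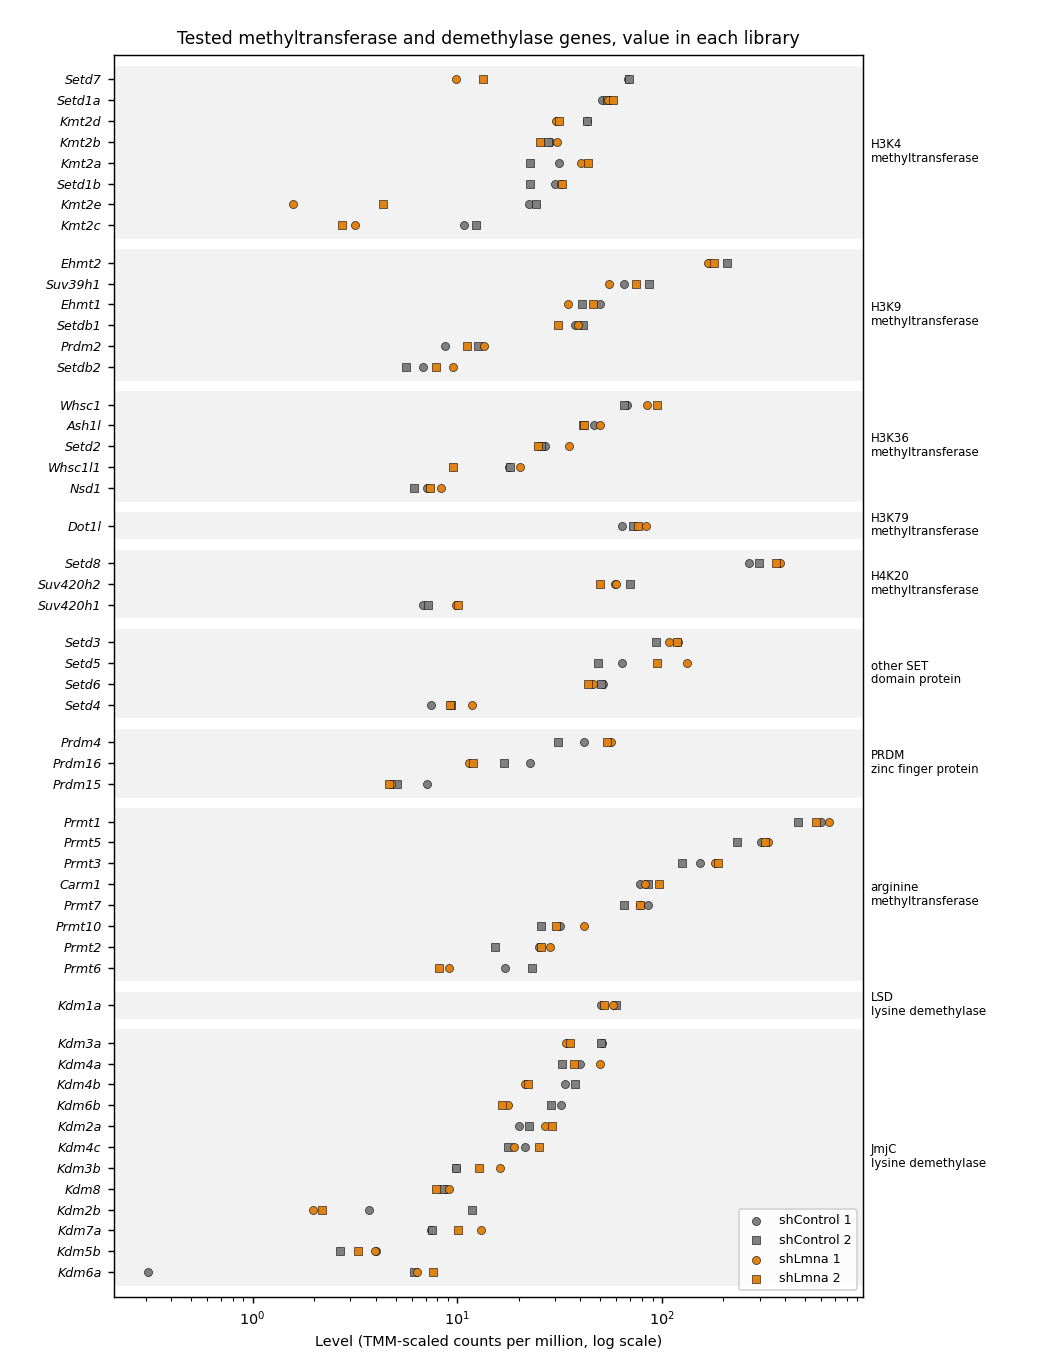
Level of the tested members in each library, all but 1 of 52, in TMM-scaled CPM on a log axis, grouped by role, with grey marks for shControl and orange marks for shLmna. Setd7, Kmt2e and Kmt2c stand out in the H3K4 group with both orange marks far to the left of the grey ones, and most other genes show all 4 marks close together.

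Among the genes listed as H3K4 methyltransferases, where Kmt2e was placed by its family, 8 of 9 were tested and 3 were lower, none higher. Over all tested genes 9.74% were lower and 5.48% higher, the background for this and each later class. Of these 3, Kmt2e and Kmt2c met the filter on low counts through shControl alone, the group where they are high, so the count is a description and only Setd7 met it in both groups. The summed level of the class was 285 and 276 CPM in shControl and 203 and 211 CPM in shLmna, and Setd7 alone supplied most of that gap. Setd7 encodes a monomethyltransferase of H3K4 and of many non-histone proteins. It had 220 and 259 counts in shControl against 25 and 49 in shLmna, or 68.1 and 69.3 against 9.89 and 13.4 CPM. The groups were far apart, at 68.7 ± 0.848 and 11.6 ± 2.45 CPM (mean ± SD, n = 2). The level was 5.80-fold lower in shLmna, with a log2 change of −2.54 (SE 0.202, adjusted p = 3.61e-05). Setd7 lies at chr3:51515319-51560879 on the minus strand of GRCm38.

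Kmt2e encodes a SET domain protein of the MLL group that is generally held to lack methyltransferase activity and to bind H3K4me3 through its PHD finger. It had 72 and 91 counts in shControl against 4 and 16 in shLmna, or 22.3 and 24.4 against 1.58 and 4.36 CPM. The shLmna libraries differed between themselves, but both lay far below shControl. The level was 7.29-fold lower, with a log2 change of −2.87 (SE 0.363, adjusted p = 6.98e-04). Without shLmna 2 the log2 change was −3.84, and with a correction for GC content −2.07. The gene lies at chr5:23434441-23504235 on the plus strand, and its counted 3′ end overlaps Srpk2 on the opposite strand. Whether counting used the strand is not given in the sources used here, so reads of the pair may not be separable.

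Kmt2c encodes the catalytic subunit of an enhancer-bound complex that monomethylates H3K4. It had 35 and 46 counts in shControl against 8 and 10 in shLmna, or 11.6 ± 1.04 and 2.94 ± 0.311 CPM. The groups did not overlap, and the level was 3.94-fold lower (log2 change −1.98, SE 0.354, adjusted p = 0.0053). The adjusted p was 0.0642 by DESeq2 and 0.0782 without shLmna 2. Kmt2c lies at chr5:25271798-25498783 on the minus strand, and its close relative Kmt2d, catalytic subunit of the sister complex, did not pass the test. Kmt2d had 43.1 and 42.8 CPM in shControl and 30.5 and 31.3 CPM in shLmna, with a log2 change of −0.47 (SE 0.174, adjusted p = 0.0995).

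Start regions of both Setd7 and Kmt2c were found in the RefSeq promoter table (GRCm38.p6), and they are shown because these genes moved together while their start regions differ in composition. Each window runs 5′ to 3′ on the strand of the gene, from 250 bases before to 50 bases after the annotated start. Capitals mark matches to the GC box letters GGGCGG or, for the other strand, CCGCCC, overlapping matches included. The first window is chr3:51560774-51561073 and the second chr5:25498734-25499033, both on the minus strand.
Setd7: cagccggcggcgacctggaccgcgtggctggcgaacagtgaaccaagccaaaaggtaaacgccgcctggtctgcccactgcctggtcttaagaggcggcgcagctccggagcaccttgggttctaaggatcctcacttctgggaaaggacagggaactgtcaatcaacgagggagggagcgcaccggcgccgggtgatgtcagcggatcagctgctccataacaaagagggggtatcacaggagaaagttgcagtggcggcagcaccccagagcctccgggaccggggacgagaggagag
Kmt2c: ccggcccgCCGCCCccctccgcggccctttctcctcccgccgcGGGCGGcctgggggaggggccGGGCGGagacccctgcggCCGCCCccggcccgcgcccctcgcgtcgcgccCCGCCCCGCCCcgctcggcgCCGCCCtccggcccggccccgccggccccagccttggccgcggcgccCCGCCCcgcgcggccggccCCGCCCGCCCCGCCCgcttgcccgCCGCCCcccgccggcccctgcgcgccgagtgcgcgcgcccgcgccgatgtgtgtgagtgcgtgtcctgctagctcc
The Setd7 window had a GC content of 62.7% and no GC box match, and the Kmt2c window had a GC content of 88.0% and 12 matches. The median over all 32841 windows in the table was 52.7%. Neither window held the letters CCAAT or CATGTG on either strand. Over all windows, 35.7% held the GC box letters, 37.4% CCAAT and 14.2% CATGTG. Of 38 tested member genes with a window, 27 held the GC box letters in any of their windows, 18 CCAAT and 4 CATGTG. These are counts of tested genes, whereas the shares are of single windows over all genes, so they are not comparable. A match is a description of the letters and not a bound site.

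The other H3K4 enzymes moved less. Setd1a, a COMPASS catalytic subunit, had 50.8 and 54.1 CPM in shControl and 54.6 and 57.8 CPM in shLmna (log2 change 0.10, 95% interval −0.23 to 0.43). Of the 31-base words of its counted end, 34.9% also occur in other genes, so its count is less certain. Kmt2a, the MLL1 gene, had 31.3 and 22.8 CPM in shControl and 40.3 and 43.3 CPM in shLmna, with a log2 change of 0.64 that missed the threshold (adjusted p = 0.0691). Kmt2b and Setd1b had log2 changes of −0.01 and 0.29, and Prdm9, a meiotic H3K4 enzyme, had 1 count in the whole series.

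Of the H3K9 methyltransferases, the study measured SUV39H2 and SETDB1 as proteins and reported both as significantly reduced after lamin A/C knockdown. The libraries measure transcripts, not proteins. For transcripts, 0 of the 6 tested members listed in this class passed the adjusted test, and 0 passed by DESeq2. By edgeR 0 of them had an unadjusted p under 0.05, where 2750 of all 9150 tested genes did. Suv39h2 was not among the 6. The counts hold for the listed genes only. Most PRDM genes were listed as a class of their own, and Mecom among related enzymes outside the name rule. Of these, Prdm16 had a log2 change of −0.74 with an unadjusted p of 0.0162 by edgeR. Summed levels of the class were 339 and 396 CPM in shControl and 321 and 351 CPM in shLmna. Ehmt2, the G9a gene, had 169 and 207 CPM in shControl and 168 and 180 CPM in shLmna. Its log2 change was −0.11 (95% interval −0.41 to 0.19), and that of its partner Ehmt1 was −0.14 (−0.58 to 0.30), from 49.9 and 40.7 to 34.8 and 46.3 CPM. In both genes the libraries of the groups overlapped.

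Suv39h1, a trimethylase of pericentric heterochromatin, had 65.0 and 86.7 CPM in shControl and 55.4 and 74.7 CPM in shLmna, with a log2 change of −0.21 (95% interval −0.64 to 0.21). Setdb1, the trimethylase recruited by TRIM28, had 37.5 and 41.0 CPM in shControl and 38.8 and 31.1 CPM in shLmna. Its log2 change was −0.18 (95% interval −0.60 to 0.24, adjusted p = 0.571), and its counted end overlaps Cers2 on the opposite strand. Both genes overlapped between groups, and each interval leaves out a loss of 1 log2 unit. Setdb2 had 6.81 and 5.62 CPM in shControl and 9.49 and 7.90 CPM in shLmna (log2 change 0.47, 95% interval −0.26 to 1.21). Prdm2 had 8.67 and 12.6 against 13.4 and 11.2 CPM (log2 change 0.19, 95% interval −0.46 to 0.85).

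Suv39h2, the other SUV39H enzyme, was too low to be tested. It had 5 and 7 counts in shControl against 1 and 2 in shLmna, 12 against 3 in all. The ratio of shLmna to shControl, scaled for library size, was 0.281, with an exact 95% interval of 0.0509 to 1.04 that covers counting error only. Both shLmna libraries lay below both shControl libraries, but at this depth a difference was not detectable from the counts. With no filter on low counts the adjusted p of edgeR was 0.342. In the batch-corrected log2 values 1 of 7 H3K9 genes passed by limma, and it was Suv39h2 (log2 difference −0.10, adjusted p = 0.0307). On those values limma called 19.1% of all genes lower and 17.2% higher. These shares are the background for its calls in each class and list here.

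**Figure D2:**
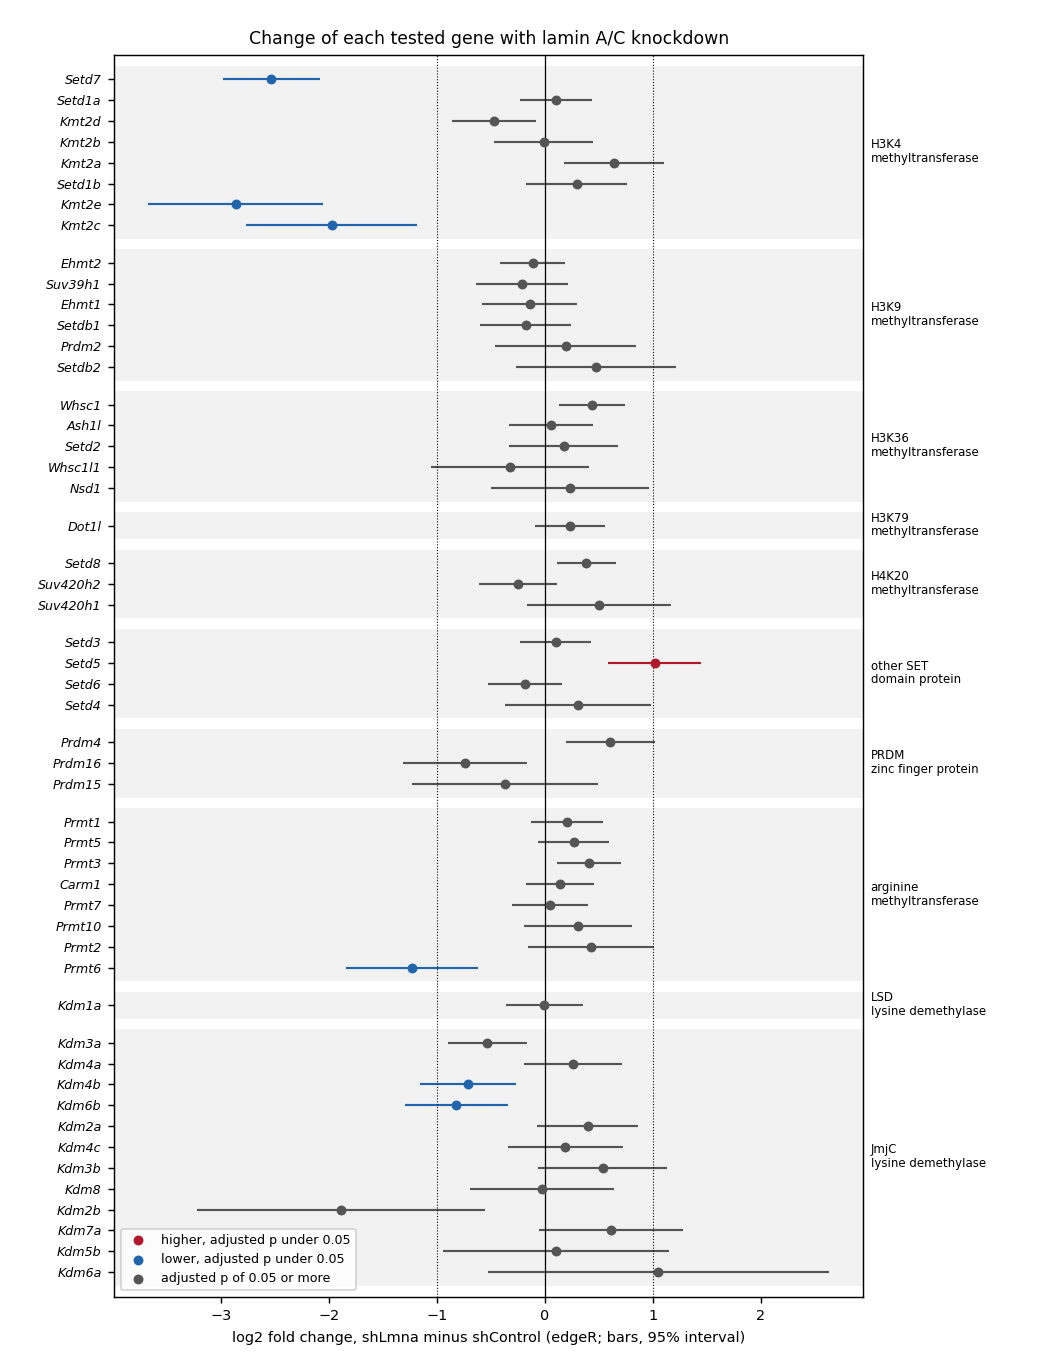
Log2 fold change of the tested members, all but 1 of 52, shLmna minus shControl, from the edgeR fit, with bars for the 95% interval and dotted lines at a log2 change of 1 in either direction. Blue points are the 6 lower genes and the red point is Setd5, and the 6 H3K9 methyltransferases sit around 0 with intervals that include it.

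No H3K36 methyltransferase passed, by edgeR at an adjusted p under 0.05, and 1 of 5 had an unadjusted p under 0.05. DESeq2 called 0 of them and limma on the batch-corrected values 1. The gene in both cases was Whsc1, which encodes the H3K36 dimethylase NSD2. It had 67.2 and 65.6 CPM in shControl and 85.0 and 94.3 CPM in shLmna, so the groups did not overlap, and its log2 change was 0.44 (SE 0.137, adjusted p = 0.0609). Ash1l, another H3K36 dimethylase, had 46.5 and 41.0 CPM in shControl and 49.8 and 41.4 CPM in shLmna (log2 change 0.06, 95% interval −0.34 to 0.45). With the correction for GC content its log2 change was 0.70 (adjusted p = 0.0487), the 1 call that this correction gave in the class, and with the replicate block added 0.71 (adjusted p = 0.00611). Its counted end had a GC content of 35.3%. Setd2, the H3K36 trimethylase, Nsd1 and Whsc1l1 had log2 changes of 0.17, 0.23 and −0.33, each with an interval that includes 0.

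Dot1l, the H3K79 methyltransferase gene, had 63.5 and 72.0 CPM in shControl and 83.5 and 76.3 CPM in shLmna, a log2 change of 0.23 (95% interval −0.09 to 0.55). For H4K20, 0 of 3 genes passed the adjusted edgeR test and 1 had an unadjusted p under 0.05, while DESeq2 called 0 and limma 2 (Setd8 and Suv420h1, higher). Setd8, the H4K20 monomethylase, had 266 and 298 CPM in shControl and 379 and 359 CPM in shLmna. The groups did not overlap, and the log2 change was 0.39 (SE 0.124, adjusted p = 0.067). The trimethylase gene Suv420h2 had 59.2 and 70.1 against 59.7 and 49.9 CPM (log2 change −0.25, 95% interval −0.61 to 0.12), and Suv420h1 had a log2 change of 0.51 (95% interval −0.16 to 1.17).

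Setd5 was the 1 member that passed in the upward direction. It encodes a SET domain protein whose own methyltransferase activity is debated and whose loss in people is linked to intellectual disability. It had 205 and 182 counts in shControl against 336 and 349 in shLmna, or 63.5 and 48.7 against 133 and 95.1 CPM. The group means were 56.1 ± 10.4 and 114 ± 26.7 CPM (SD, n = 2), and the libraries did not overlap. The level was 2.02-fold higher, with a log2 change of 1.02 (SE 0.193, adjusted p = 0.00724). Without shLmna 1 the log2 change was 0.77 and the adjusted p 0.0743. The gene lies at chr6:113077365-113153435 on the plus strand.

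The other SET domain genes of the class stayed within 0.31 log2 units of 0. Setd3, which encodes a histidine methyltransferase of actin, had 119 and 93.7 CPM in shControl and 108 and 119 CPM in shLmna (log2 change 0.10, 95% interval −0.23 to 0.43). Of the 31-base words of its counted end, 16.7% occur in other genes. Setd4 and Setd6 had log2 changes of 0.31 and −0.19.

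The PRDM zinc finger genes were mostly silent in these cells. Of 12, 4 were tested, 6 had no count in any library (Prdm1, Prdm6, Prdm8, Prdm12, Prdm13 and Prdm14), and Prdm10 and Prdm11 had 1 and 13 counts in the whole series. Prdm4 had 41.8 and 31.1 CPM in shControl and 56.6 and 54.2 CPM in shLmna, with a log2 change of 0.61 just outside the threshold (SE 0.185, adjusted p = 0.0539). Prdm16, a transcriptional regulator of brown fat, had 22.6 and 16.9 CPM in shControl and 11.5 and 12.0 CPM in shLmna (log2 change −0.74, adjusted p = 0.0836), and Prdm15 had a log2 change of −0.37. By edgeR 0 of the 4 passed and 2 had an unadjusted p under 0.05, where 2750 of all 9150 tested genes did. DESeq2 called 0. Limma on the batch-corrected values called Prdm16 lower and Prdm4 higher, where it called 19.1% and 17.2% of all genes.

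Summed levels of the arginine methyltransferases were 1297 and 1036 CPM in shControl and 1407 and 1314 CPM in shLmna, and 1 of 8 tested genes was lower, none higher. Prmt1, the main asymmetric dimethylase of the cell, had 601 and 463 CPM in shControl and 657 and 569 CPM in shLmna (log2 change 0.20, 95% interval −0.13 to 0.54). Prmt5, the main symmetric dimethylase, had 305 and 232 CPM in shControl and 328 and 318 CPM in shLmna (log2 change 0.27, 95% interval −0.07 to 0.60). Both values turned on the shControl libraries: without shControl 1 the log2 changes were 0.41 for Prmt1 (adjusted p = 0.0354) and 0.48 for Prmt5 (adjusted p = 0.017), and without shControl 2 they were 0.02 and 0.08. The groups overlapped in Prmt1 but not in Prmt5. Of the 31-base words of the Prmt1 end, 13.1% occur in other genes.

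Prmt6, which encodes the asymmetric dimethylase of arginine 2 of histone H3, was the member that fell. It had 55 and 87 counts in shControl against 23 and 30 in shLmna, or 17.0 and 23.3 against 9.10 and 8.17 CPM. The level was 2.35-fold lower, with a log2 change of −1.23 (SE 0.272, adjusted p = 0.0142). The call was lost without shControl 2 (log2 change −0.99, adjusted p = 0.0518), without shLmna 1 (−1.30, adjusted p = 0.0661), without shLmna 2 (−1.14, adjusted p = 0.125) and by DESeq2 (adjusted p = 0.131). Prmt6 lies at chr3:110246109-110250998 on the minus strand. Prmt3, a ribosomal protein methyltransferase, had 153 and 126 against 182 and 188 CPM (log2 change 0.41, adjusted p = 0.068), Carm1, Prmt2, Prmt7 and Prmt10 had log2 changes of 0.05 to 0.43, and Prmt8, a neural enzyme, had no counts.

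Of the LSD demethylases, Kdm1a (LSD1) had 50.2 and 59.7 CPM in shControl and 57.7 and 52.3 CPM in shLmna, a log2 change of −0.0046 (95% interval −0.36 to 0.35) whose sign turned under several alternatives. Kdm1b (LSD2) was below the filter. It had 3 and 16 counts in shControl against 0 and 1 in shLmna, a ratio of 0.0591 with an exact 95% interval of 0.00142 to 0.372 from counting error, most of it resting on shControl 2. With no filter on low counts its adjusted p was 0.00935 by edgeR, and by DESeq2 it was 0.304. Its counted end overlaps Dek on the opposite strand.

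Of the 16 JmjC demethylases, 12 were tested, 2 were lower and none higher. Kdm6b encodes the H3K27 demethylase JMJD3. It had 104 and 107 counts in shControl against 45 and 61 in shLmna, or 32.2 and 28.6 against 17.8 and 16.6 CPM, which is 1.77-fold lower. The log2 change was −0.82 (SE 0.213, adjusted p = 0.0286). The call was lost without shLmna 1 (adjusted p = 0.114), without shLmna 2 (adjusted p = 0.177) and by DESeq2 (adjusted p = 0.225). Kdm6b lies at chr11:69398508-69413675 on the minus strand.

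Kdm4b encodes a demethylase of H3K9me3 and H3K36me3. It had 109 and 140 counts in shControl against 54 and 81 in shLmna, or 33.8 and 37.5 against 21.4 and 22.1 CPM, which is 1.64-fold lower. The log2 change was −0.71 (SE 0.198, adjusted p = 0.0377). Without shControl 2 the adjusted p was 0.0895, without shLmna 1 it was 0.188, without shLmna 2 it was 0.177, and by DESeq2 it was 0.269. The gene lies at chr17:56326062-56402870 on the plus strand. Its paralogs Kdm4a and Kdm4c had log2 changes of 0.26 (95% interval −0.20 to 0.72) and 0.19 (−0.34 to 0.73), and Kdm4d had no counts. Kdm4a had 39.6 and 32.4 CPM in shControl and 49.8 and 37.1 CPM in shLmna.

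Kdm3a, a demethylase of the lower methyl states of H3K9, lay just outside the threshold. It had 50.8 and 50.3 CPM in shControl and 34.0 and 35.7 CPM in shLmna, which do not overlap, with a log2 change of −0.53 (SE 0.163, adjusted p = 0.0552). Kdm2b, which brings a Polycomb complex to CpG islands, had 12 and 44 counts in shControl against 5 and 8 in shLmna (log2 change −1.89, SE 0.598, adjusted p = 0.0622), and the spread between its shControl libraries was wide. Its counted end overlaps Rnf34 on the opposite strand. The X-linked Kdm6a, an H3K27 demethylase, had 1 and 23 counts in shControl against 16 and 28 in shLmna (log2 change 1.05, adjusted p = 0.356). Kdm2a, Kdm3b, Kdm5b, Kdm7a and Kdm8 had log2 changes of −0.03 to 0.61, and 0 of them passed the adjusted test.

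Among the H3K4me3 demethylases, Kdm5a had 6 and 3 counts in shControl against 4 and 4 in shLmna, a ratio of 0.999 (exact 95% interval 0.335 to 2.92). Kdm5c had 0 and 5 counts in shControl against 6 and 8 in shLmna, a ratio of 3.15 (exact 95% interval 1.07 to 11.2). The Y-linked Kdm5d had no counts. These 3 genes were not tested, and the intervals cover counting error only.

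The 7 genes past the adjusted test are set against every alternative in the plot of their changes by setting. Setd7 and Kmt2e passed under all 13 alternatives, Setd5 under 12, Kmt2c under 11, Kdm6b under 10, and Prmt6 and Kdm4b under 9 each. Each gene kept its direction in all 13. The alternatives used the same libraries or a part of them, so they are not independent of each other. Kmt2e and Kmt2c met the filter on low counts through shControl alone, the group where they are high, so their tallies are a description. Of the genes just outside the threshold that were named in full, Prdm4 passed under 6 alternatives, Whsc1 and Setd8 under 5 each, and Kdm3a under 4. Other near genes passed too in fits with all libraries. Kmt2a was higher with no filter, the replicate block, the GC correction, both of these, recovered counts and limma. Prmt3 was higher with no filter, the replicate block, recovered counts and limma. Kdm2b was lower with no filter and with the replicate block, with or without the GC correction. In the deposited batch-corrected log2 values the changes were smaller for each of the 7, at −0.73 for Setd7, −0.49 for Kmt2e, −0.28 for Kmt2c and 0.42 for Setd5, and none of the 7 exceeded 1 in size. The change of Lmna was smaller there too, at −1.54 in place of −2.61. On these values limma called 19.1% of all genes lower and 17.2% higher at an adjusted p under 0.05.

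**Figure D3:**
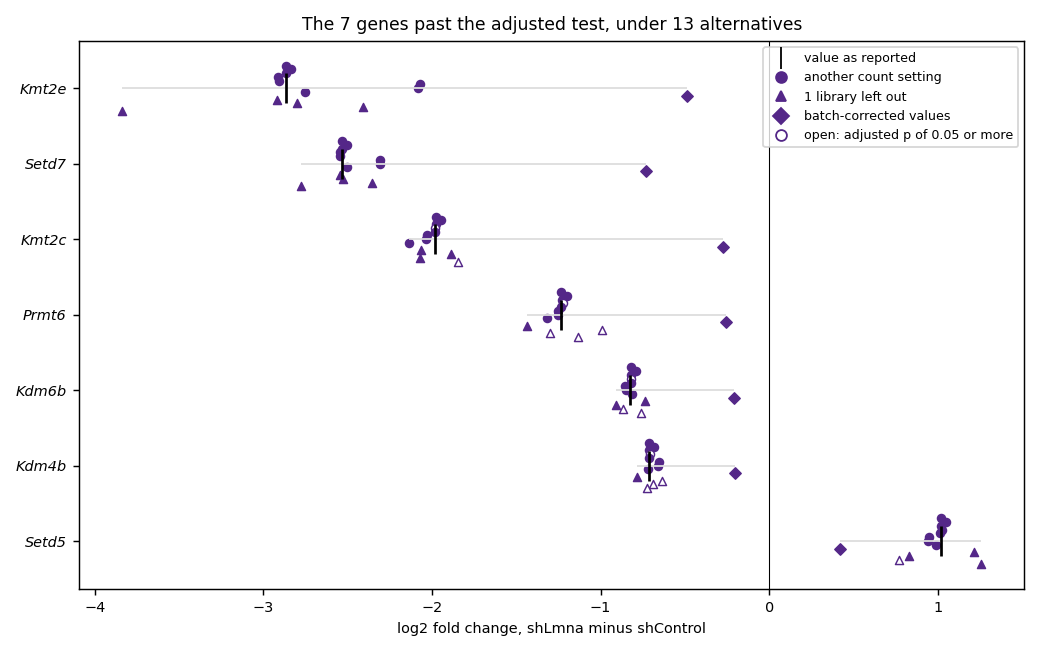
Log2 fold change of the 7 genes past the adjusted test (shLmna minus shControl) as reported, shown as black ticks, and under 13 alternatives, with triangles for fits without 1 library and diamonds for the batch-corrected values, and open marks where the adjusted p was 0.05 or more. All marks of a gene stay on 1 side of 0, and the diamonds lie nearest to it.

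Loss of counts in these libraries moved with the base composition of the counted 3′ end. Among all tested genes with a GC content of up to 36% over the last 1000 transcript bases, 38.6% were called lower, against 12.5% at 36 to 42%, 4.78% at 42 to 48%, 5.33% at 48 to 54% and 8.22% above 54%. Of the 6 lower members, Kmt2e had a GC content of 34.3% and Setd7 one of 38.5%, Prmt6 had 42.2%, Kmt2c 48.3%, Kdm6b 49.7% and Kdm4b 54.7%. The members thus came from every part of the range, and the median GC content of the 6 was 45.2%, the same as for the members that did not pass, while it was 39.8% for all lower genes and 47.6% for all genes not past the test.

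With a correction for GC content, the same 6 members were lower, and 6 were higher in place of 1 (Ash1l, Kdm2a, Kdm6a, Kdm7a, Kmt2a and Setd5). Over all genes that correction gave 748 lower and 811 higher calls in place of 891 and 501 over 9150 genes. The part of base composition in the result for any single gene was not tested beyond this correction.

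**Figure D4:**
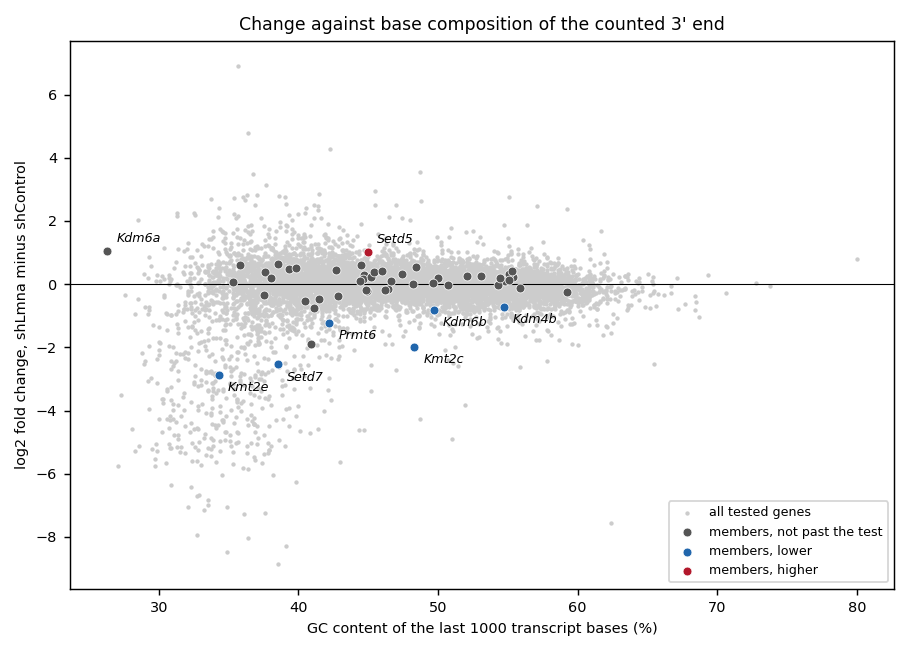
Log2 fold change (shLmna minus shControl) against the GC content of the last 1000 transcript bases in percent, for all tested genes in light grey and members, all but 1, in dark grey, blue (lower) or red (higher). Strongly lower genes crowd below about 42% GC, where Kmt2e and Setd7 lie, while Kmt2c, Kdm6b and Kdm4b sit at higher GC content among genes that changed little.

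Proteins that work with these enzymes, and the cycle that supplies their methyl donor, were described from lists of 81 further genes. Of 69 tested, 4 were lower and 5 higher at an adjusted p under 0.05 (edgeR), which is 5.80% and 7.25% beside 9.74% and 5.48% of all tested genes, and the median log2 change was 0.03. The shares lay near or below those of all genes. The counts were 8 and 5 without shControl 1, 2 and 2 without shLmna 1, and 1 and 0 without shLmna 2. Among the partners of the COMPASS, MLL and DOT1L complexes, 2 of 17 were lower and 1 higher. Hcfc2, a host cell factor found with MLL complexes, had 17 and 19 counts in shControl against 3 and 5 in shLmna (log2 change −1.97, SE 0.503, adjusted p = 0.0271). At 1.19 and 1.36 CPM, its shLmna libraries lay under the cutoff of the filter on low counts, 2.89 CPM. Hcfc2 thus met that filter through shControl alone, the group where it is high, so its call is a description. Its call was lost without shControl 2 (adjusted p = 0.067), without shLmna 1 (adjusted p = 0.188), without shLmna 2 (adjusted p = 0.195) and by DESeq2 (adjusted p = 0.324). Mllt1, the ENL reader of the super elongation complex, had 138 and 152 CPM in shControl and 87.8 and 84.5 CPM in shLmna (log2 change −0.75, SE 0.128, adjusted p = 0.004), and without shLmna 2 the adjusted p was 0.077.

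Aff4, the scaffold of the same complex, had 61.6 and 50.1 CPM in shControl and 81.5 and 79.8 CPM in shLmna (log2 change 0.53, SE 0.153, adjusted p = 0.0433). That call was lost without shControl 2 (adjusted p = 0.154), shLmna 1 (0.202) or shLmna 2 (0.191), by DESeq2 (0.206) and with recovered counts (0.052). With the GC correction the log2 change was 0.999. The core COMPASS subunits Wdr5, Ash2l, Rbbp5 and Dpy30, which hold the H3K4 enzymes together, had log2 changes of 0.35, 0.15, −0.01 and 0.24, and none of these passed.

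Of the H3K9 partners 1 of 9 passed, and it was lower. Trim28, the corepressor that brings SETDB1 to DNA, had 645 and 735 CPM in shControl and 410 and 441 CPM in shLmna. The groups did not overlap, and the log2 change was −0.70 (SE 0.124, adjusted p = 0.00519), with an adjusted p of 0.0882 without shLmna 1 and 0.0676 without shLmna 2. Atf7ip, the SETDB1 cofactor, had a log2 change of −0.62 (adjusted p = 0.113), and Cdyl, a chromodomain protein, one of −1.13 (adjusted p = 0.0541). Cbx5, which encodes HP1α, had 34.7 and 49.8 against 69.6 and 57.5 CPM (log2 change 0.57, adjusted p = 0.0837). None of these 3 passed. Of the 12 partners of LSD1 and the KDM5 enzymes, among them Rcor1, Hdac1, Hdac2 and Sin3a, 0 passed by edgeR and 0 had an unadjusted p under 0.05, while DESeq2 called 0 and limma on the batch-corrected values 3 lower.

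Among the partners of PRMT5 and PRMT1, 1 of 4 tested was higher. That gene was Wdr77, which encodes the MEP50 subunit of the PRMT5 complex, with 11.8 and 12.6 CPM in shControl and 19.4 and 22.6 CPM in shLmna (log2 change 0.79, SE 0.236, adjusted p = 0.0499). Its call was lost without any 1 of the 4 libraries, at adjusted p of 0.0723 without shControl 1, 0.0745 without shControl 2, 0.115 without shLmna 1 and 0.24 without shLmna 2, and by DESeq2 at 0.399. Clns1a, another PRMT5 partner, had no counts. Of 13 tested related enzymes outside the name rule, N6amt1, a glutamine methyltransferase of translation release factor, was the 1 that passed, at 55.1 and 57.8 CPM in shControl and 78.7 and 81.2 CPM in shLmna (log2 change 0.50, SE 0.138, adjusted p = 0.0371). Without shLmna 1 its adjusted p was 0.162, without shLmna 2 it was 0.191, and by DESeq2 it was 0.222.

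In the methyl donor cycle, 1 of 14 tested genes was lower and 2 were higher, and both subunits of the S-adenosylmethionine synthetase were among them. Mat2a, the catalytic subunit, had 518 and 536 CPM in shControl and 859 and 846 CPM in shLmna, a log2 change of 0.69 (SE 0.112, adjusted p = 0.00299). Mat2b, the regulatory subunit, had 52.3 and 59.4 CPM in shControl and 12.7 and 25.6 CPM in shLmna, a log2 change of −1.50 (SE 0.27, adjusted p = 0.00542). Both pairs of groups lay apart, in opposite directions. Without shLmna 2 the log2 change of Mat2b was −2.13, and the adjusted p of Mat2a was 0.0519. Ahcyl2, a relative of the enzyme that clears S-adenosylhomocysteine, had 24.2 and 20.6 CPM in shControl and 40.7 and 47.7 CPM in shLmna (log2 change 0.99, SE 0.198, adjusted p = 0.00918), and without shLmna 2 the adjusted p was 0.106. Ahcy itself had a log2 change of −0.28 (adjusted p = 0.301).

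**Figure D5:**
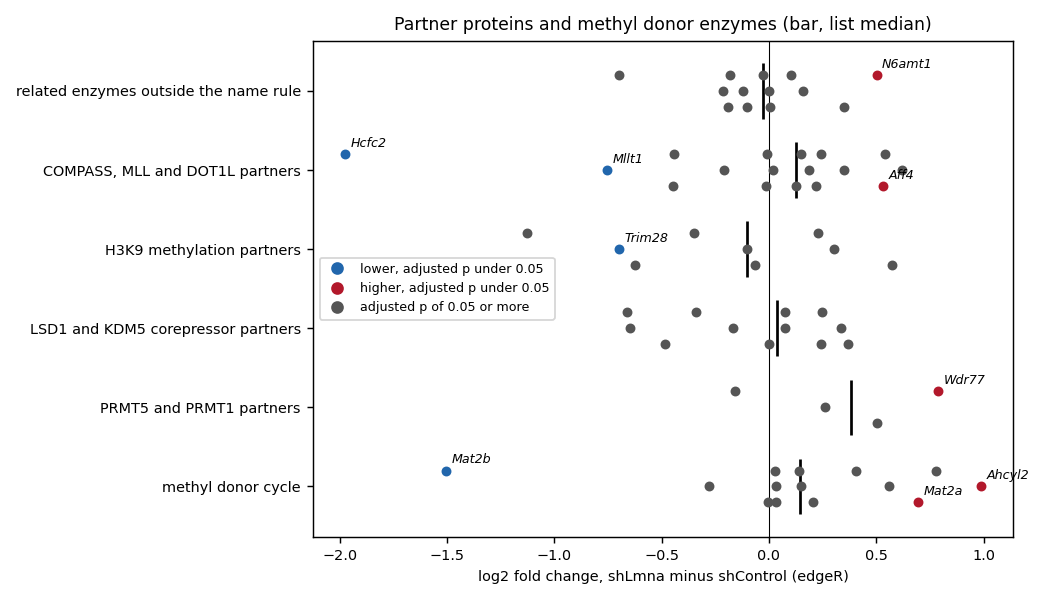
Log2 fold change (shLmna minus shControl, edgeR) of each tested gene of the partner lists, 1 row of points a list, with a black bar at the list median, blue for lower and red for higher at an adjusted p under 0.05. Most of the 69 points lie within 0.5 of 0, and Hcfc2 and Mat2b lie farthest to the left.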

How the data were processed

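RNA of 4 B16F10 libraries was profiled by bulk MARS-seq, which primes at the poly(A) tail, tags molecules with unique molecular identifiers (UMIs) and reads transcript 3′ ends. Per the study's methods, the authors used the UTAP pipeline: trimming with Cutadapt, alignment to mm10 with STAR 2.4.2a (version from the submitters' processing notes), and HTSeq assignment to RefSeq genes over their last 1000 bases with 100 bases beyond the end, with UMI duplicates marked. The authors deposited raw counts per symbol, and these were the input of the main test. Whether UMI duplicates were already collapsed in them is not given in the sources used here. Their totals were 1.08 to 1.09 times those of the counts recovered from the normalized signal described next, and the reason was not tested. Another deposited table gave per library a normalized signal (counts divided by a DESeq2 size factor), plus the authors' p-values, which were not used. Deposited log2 values had been batch-corrected by the authors with ComBat, and no batch is named in the labels.

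Groups and replicate numbers came from sample titles. Differential expression was tested in R 4.3.3 with edgeR 4.0.16 (TMM, filterByExpr, quasi-likelihood F test, group as the only term) over 9150 genes. SE and 95% intervals were derived from the F statistic. Intervals of low genes are exact binomial intervals of count ratios and cover counting error only, as does a floor of 3 counts per library, which is 0.803 to 1.19 CPM. Genes named in full were those with an adjusted p under 0.05, the H3K9 methyltransferases, and the 2 most abundant tested members of each role, but 1 member is counted and not reported here by itself. The naming rule that fixes the members, the roles and the lists was chosen with earlier results of these data known. The replicates differed by more than counting noise (chi-square per degree of freedom 6.96 in shControl and 3.91 in shLmna), and were kept as separate samples. GC content, overlaps and 31-base words were taken from GENCODE transcripts of GRCm38, and start regions from RefSeq. The procedure was tested on simulated data. Alternatives used RLE size factors, library totals, no filter, DESeq2 1.42.0, a replicate block, a GC correction, counts recovered from the signal table (100% of its values were whole multiples, within 0.02), limma 3.58.1 on the log2 values, and fits without 1 library.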

Additional observations from a re-analysis of the deposited data

How the results depend on the processing

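Counts of members at an adjusted p under 0.05 (6 lower, 1 higher) kept the lower count within 1.5 times under 7 of 9 alternatives that used all libraries: it was 2 by DESeq2 and 11 by limma on the batch-corrected log2 values. The higher count was 4 with library totals only, 6 without a filter, 6 with the GC correction, 3 with recovered counts and 14 by limma. Without single libraries the lower count ran from 2 to 8 and the higher from 0 to 8. Past the study's limits (4 lower, 1 higher), the counts were 2 lower by DESeq2, 0 and 0 by limma, 2 higher with the GC correction (Kdm6a and Kdm7a, not Setd5) and 0 higher with recovered counts, and without single libraries 2 to 6 lower and 0 to 1 higher. A lone library left in a group was assumed to vary like the other group.

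The replicate block gave 9 lower and 6 higher members, and with the GC correction 7 and 7, the latter with 2 higher past the limits (again Kdm6a and Kdm7a). The differences of the replicates correlated by 0.015 between groups over 9150 genes, so no large shift shared by replicate number was seen. Whether libraries of the same replicate number share a culture or day is not stated in the labels, and this correlation cannot settle it.

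Partner genes (4 lower, 5 higher) gave 7 lower and 8 higher without a filter, 2 higher by DESeq2, 13 and 15 by limma, 9 higher with the replicate block, 9 with the GC correction and 11 with both, and 1 to 8 lower and 0 to 6 higher without single libraries.

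Over all genes, 891 lower and 501 higher became 592 and 218 by DESeq2, 748 and 811 with the GC correction, 951 and 1097 with the replicate block and GC correction, 1220 and 852 with the block alone, 1988 and 1793 by limma, and 414 to 1329 and 89 to 775 without single libraries. Past the study's limits, 538 and 161 became 435 and 369 with the GC correction, 391 and 66 by DESeq2, and 28 and 2 by limma.

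The log2 change of Kdm1a turned positive with library totals only (0.028), by DESeq2 (0.0031) and by limma (0.0023). Without single libraries, ranges that crossed 0 were −0.0714 to 0.20 for Ash1l, −0.36 to 0.040 for Ehmt1, −0.25 to 0.0409 for Ehmt2, −0.12 to 0.12 for Kdm1a, −0.0436 to 0.49 for Prdm2, −0.070 to 0.28 for Setd3 and −0.44 to 0.0108 for Suv39h1. None of these genes passed the test as reported. Where a count moved, the cause was not tested.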

Other observations

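Some low genes of the partner lists had counts in 1 group that were nearly missing in the other, and they fell below the filter on low counts. Mecom, a relative of the PRDM genes, had 9 and 17 counts in shControl and none in either shLmna library. With no filter its adjusted p was 3.04e-05 by edgeR, and it was 0.0362 by DESeq2. Without shLmna 1 it was 0.0555 and without shLmna 2 it was 0.11. Zfp644, a zinc finger partner of G9a, had 4 and 14 counts in shControl against 0 and 1 in shLmna, with an adjusted p of 0.0135 by edgeR with no filter and 0.315 by DESeq2. Cbx3, which encodes HP1γ and has many pseudogene copies, had 3 and 1 counts in shControl against 4 and 15 in shLmna, with an adjusted p of 0.0507 by edgeR with no filter and 0.51 by DESeq2. The spread between replicates was wide in the shControl libraries of Zfp644 and in the shLmna libraries of Cbx3. It was smaller in Mecom, and the values of each of these genes rest on few counts.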
